A study of Mus musculus with 18 samples.

Results

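The tuft cell genes Dclk1, Trpm5, Avil, Alox5, Plcb2, Il25, Ptgs1 and Gfi1b were described in RNA-seq libraries of Lgr5+ cells from crypts of the small intestine (SI) and the large intestine (LI). They were taken by symbol from the tables of counts per gene, in which each of the 8 has 1 row among 43346 genes. All 18 libraries came from untreated C57BL/6 mice of the genotype given as Lgr5_eGFP_Iris_creERT2, 8 to 20 weeks old by the labels, in which GFP and CreERT2 are driven by the Lgr5 locus and GFP is patchy between crypts. EPCAM+ cells were sorted at high, medium and low GFP, which stand for cells of the crypt centre, of the border of the stem cell zone and of positions above row 3 (row >3). This gave 6 groups (SI centre, SI border, SI row >3, LI centre, LI border and LI row >3) with 3 replicates each. No group lacks the transgene, and no group was sorted for tuft cells. The question put to these genes was how their RNA varied with the GFP level within a site, and between the sites at the same GFP level.

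Tuft cells are rare chemosensory cells of the intestinal epithelium that carry an apical tuft of stiff microvilli and that arise from crypt stem cells. They sense luminal compounds through a cascade like that of taste cells, in which phospholipase C releases calcium and a cation channel opens. In the SI they are known for releasing the cytokine IL-25 upon contact with parasites, together with leukotrienes and prostaglandins, and thereby engaging innate lymphoid cells.

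In the order of these roles, the signalling cascade is represented by Trpm5, the calcium-activated cation channel (ENSMUSG00000009246, chr7:143069153-143094642), and Plcb2, the phospholipase C upstream of it (ENSMUSG00000040061, chr2:118707517-118728438). The eicosanoid enzymes are Alox5, which makes the precursor of leukotrienes (ENSMUSG00000025701, chr6:116410077-116461178), and Ptgs1, the cyclooxygenase COX-1 (ENSMUSG00000047250, chr2:36230426-36252272). Il25 encodes the cytokine (ENSMUSG00000040770, chr14:54932695-54935837) and Gfi1b a zinc finger transcriptional repressor (ENSMUSG00000026815, chr2:28609450-28621982). Dclk1 encodes a microtubule-associated kinase that is widely used as a tuft cell marker (ENSMUSG00000027797, chr3:55242364-55539068), and Avil encodes advillin, an actin-binding protein of the tuft (ENSMUSG00000025432, chr10:127000709-127020994). Positions are those of GENCODE release M21 on GRCm38, the build (mm10) to which the reads were aligned, and all 8 genes are protein coding.

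Of the 8 genes, 7 have promoter windows in the RefSeq table (GRCm38.p6). The 250 bases before the start site are printed for the 3 genes whose border libraries did not overlap between the sites. Capitals mark the core of the GFI1 and GFI1B motif, AATCAC, searched on both strands.
Avil, chr10:127000459-127000708, plus strand: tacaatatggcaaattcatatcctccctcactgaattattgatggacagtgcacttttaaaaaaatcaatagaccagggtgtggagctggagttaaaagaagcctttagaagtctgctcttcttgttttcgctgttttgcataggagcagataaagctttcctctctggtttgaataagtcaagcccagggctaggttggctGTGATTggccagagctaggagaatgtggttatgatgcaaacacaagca
Trpm5, chr7:143094643-143094892, minus strand: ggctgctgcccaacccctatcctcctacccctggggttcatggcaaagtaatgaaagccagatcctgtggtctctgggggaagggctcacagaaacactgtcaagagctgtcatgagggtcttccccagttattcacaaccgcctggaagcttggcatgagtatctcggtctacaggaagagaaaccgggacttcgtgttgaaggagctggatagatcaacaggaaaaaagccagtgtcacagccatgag
Plcb2, chr2:118728439-118728688, minus strand: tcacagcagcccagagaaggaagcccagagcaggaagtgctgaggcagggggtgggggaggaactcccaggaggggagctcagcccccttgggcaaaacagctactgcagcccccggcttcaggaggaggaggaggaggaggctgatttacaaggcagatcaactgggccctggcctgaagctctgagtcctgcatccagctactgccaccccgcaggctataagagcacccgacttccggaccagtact
In the Avil window the core lies on the reverse strand and begins 48 bases before the start site, and none of the windows of the other members held it. The octamer bound by POU factors, ATGCAAAT, was in none of the windows of the 7 genes. Over all 32851 windows of the table, 10.4% held AATCAC and 1.74% held the octamer on either strand. These matches describe letters and are not binding sites.

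The libraries held between 8312093 (SI border replicate 1) and 31940965 counts (SI row >3 replicate 1), with a median of 21934851. Levels below are normalised counts, in which the authors divided the counts of a library by 1 size factor. Lgr5 was highest in the centre, with 5252, 4191 and 2434 normalised counts in SI centre replicates 1, 2 and 3 and 2575, 2327 and 2176 in those of LI centre. In row >3 it was at 28.1 to 280 in the SI and at 134 to 466 in the LI. SI border replicate 3 had 157 normalised counts of Lgr5, below the 1610.3 and 2028 of the other SI border libraries and within the range of SI row >3. The SI libraries of replicate 3 also stood apart from the other SI libraries in genes of the LI. Of 45 genes with at least 20 CPM in every LI centre library and at most 5% of that level in SI centre replicates 1 and 2, the median level was 64.3% of the LI level in SI centre replicate 3, 84.9% in SI border replicate 3 and 86.8% in SI row >3 replicate 3, against 1.62% to 3.27% in replicates 1 and 2 of SI border and row >3. In SI centre replicates 1 and 2, which served to choose these genes, it was low by that choice. The same 3 libraries also held genes of the SI. The 7 markers of Paneth cells, secretory cells known from the crypts of the SI, summed to 40646, 11495 and 4476 normalised counts in centre, border and row >3 of SI replicate 3 and to 36921 to 174129 in the other SI libraries, led by Defa24 and Lyz1 in centre and border, against at most 245 in the LI libraries. Genes of both sites were thus present in SI replicate 3, in which the Paneth sum lay within the range of the other SI libraries in the centre and below it in border and row >3. What lies behind this was not tested, nor was it tested whether the site label of these 3 libraries holds or samples were mixed. The tests on SI libraries are given with and without these 3. Since the labels do not tell which mouse is behind a library, p-values measure the spread between these libraries only.

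Summed over the 8 genes, tuft cell RNA was lowest in SI centre replicates 1 and 2 and highest in SI border replicate 1. The sums were 539, 705 and 8279 normalised counts in SI centre replicates 1, 2 and 3, 19867, 6176 and 9249 in SI border and 7414, 8303 and 1973 in SI row >3. In the LI they were 4685, 3453 and 2805 in the centre, 6572, 4183 and 4167 in the border and 3117, 2924 and 2602 in row >3. In replicates 1 and 2 the SI centre was far below both other SI groups, whereas in replicate 3 it was close to border and above row >3, so that the SI groups overlapped. The means were 3175 ± 4422 (SD, n = 3) in SI centre, 11764 ± 7184 in SI border, 5897 ± 3427 in SI row >3, 3647 ± 955 in LI centre, 4974 ± 1384 in LI border and 2881 ± 260.3 in LI row >3, and groups that were neighbours when ranked by their mean did not differ beyond their spread. Without replicate 3, the mean of SI centre was 622. In these bulk libraries, fewer tuft cells and less tuft cell RNA per cell cannot be told apart.

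**Figure D1:**
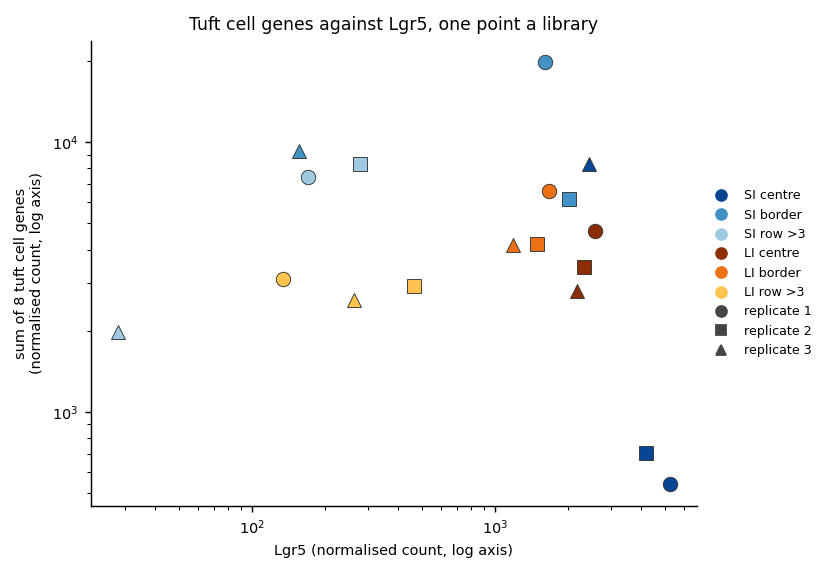
Summed normalised count of the 8 tuft cell genes (y, log axis) against the normalised count of Lgr5 (x, log axis), 1 point for each of the 18 libraries, coloured by group and shaped by replicate. SI centre replicates 1 and 2 lie at the highest Lgr5 (5252 and 4191) and the lowest tuft sums (539 and 705), while SI centre replicate 3 lies at a sum of 8279.

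Compared per kilobase of exon, Avil and Trpm5 were the highest members in SI border, with 603 ± 375 and 499 ± 309 normalised counts per kb (SD, n = 3), followed by Dclk1 at 278 ± 163, Plcb2 at 170.0 ± 116, Alox5 at 148 ± 81.3, Ptgs1 at 120.2 ± 79.0, Gfi1b at 33.0 ± 21.2 and Il25 at 7.40 ± 12.8. Without replicate 3 the order was the same, with means of 682, 554, 302, 199, 154, 132, 36.5 and 11.1 (n = 2). In LI border the same scale gave 183 ± 62.1 for Avil, 170.3 ± 45.4 for Dclk1, 160.2 ± 37.1 for Trpm5, 72.9 ± 20.6 for Alox5, 49.8 ± 16.04 for Ptgs1, 30.3 ± 14.01 for Plcb2, 12.1 ± 4.68 for Gfi1b and 7.40 ± 4.26 for Il25. Neighbours in either order overlapped within their SD, apart from Trpm5 and Alox5 in LI border. The length used was that of all annotated exons of a gene together, 15296 nt for Dclk1, 6398 for Trpm5 and 3398 for Avil. The order depends on it, as by normalised count Dclk1 was the highest in SI border. There it had 4257 ± 2496 (SD, n = 3), against 3195 ± 1974 for Trpm5 and 2047 ± 1274 for Avil. The exons of Trpm5 and Avil overlap those of Tssc4 and Tsfm on the opposite strand, whose highest group means were 11.3 and 19.3 CPM. The strand setting of the counting is not given in the sources used here.

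**Figure D2:**
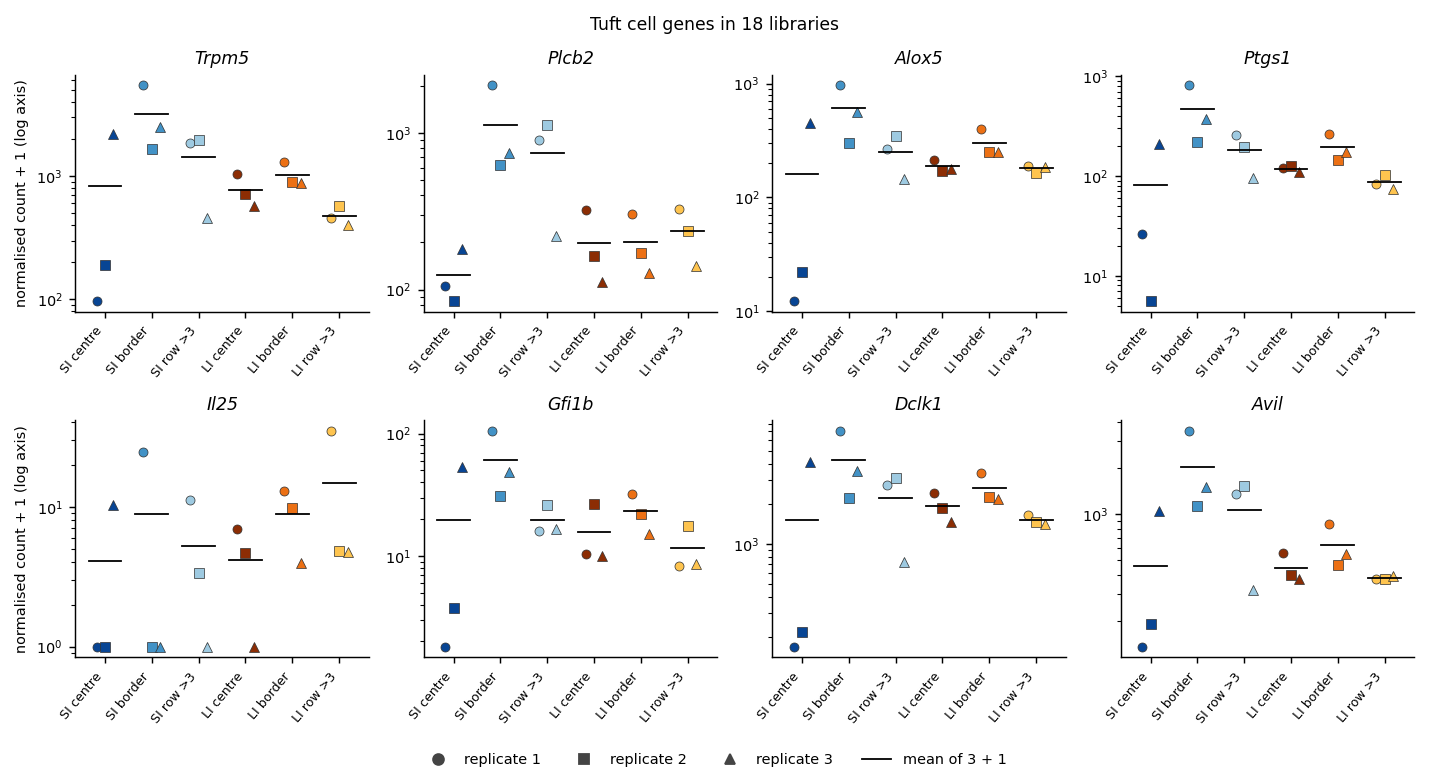
Normalised count plus 1 (y, log axis) of each tuft cell gene in the 6 groups (x), with 1 symbol per library, shaped by replicate, and a line at the mean of the 3 libraries plus 1. For 7 of the 8 genes SI centre replicates 1 and 2 sit low and SI centre replicate 3 well above them, while Plcb2 is low in all 3 SI centre libraries. Il25 is 1 of these 7 but has raw counts of only 0, 0 and 10 in SI centre, too few to compare.

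Within the SI, the first comparison asked whether border and row >3 cells differed in tuft cell RNA from the cells of the crypt centre. Trpm5 had 96.4, 191 and 2201 normalised counts in centre replicates 1, 2 and 3, 5424, 1668 and 2492 in border and 1835, 1960.2 and 456 in row >3. Centre replicates 1 and 2 thus lay below all other SI libraries, and centre replicate 3 within the range of the border. Plcb2 had 105, 83.8 and 180.0 normalised counts in centre, 2005, 622 and 738 in border and 892, 1122 and 219 in row >3, and its centre libraries overlapped neither group. Its log2 fold change was 3.15 ± 0.66 (SE) in border over centre and 2.61 ± 0.64 in row >3 over centre.

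Of the eicosanoid enzymes, Alox5 had 11.3, 21.2 and 450.4 normalised counts in SI centre replicates 1, 2 and 3, 963, 301 and 561 in border and 263, 346 and 145 in row >3. Ptgs1 had 25.1, 4.60 and 209 in centre, 809.9, 219 and 371 in border and 256, 194 and 95.2 in row >3. Every border library was above every centre library for Ptgs1, whereas for Alox5 centre replicate 3 lay above border replicate 2. The transcription factor gene Gfi1b was near the floor of detection in centre replicates 1 and 2, with 1 and 3 reads, at 0.81 and 2.76 normalised counts, against 52.2 in centre replicate 3, 104, 29.8 and 47.3 in border and 15.05, 25.3 and 15.6 in row >3.

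Of the structural genes, Dclk1 had 167, 215 and 4136 normalised counts in SI centre replicates 1, 2 and 3, 7036, 2206 and 3528 in border and 2787, 3132 and 727 in row >3. Avil had 134, 188 and 1042 in centre, 3502, 1130.2 and 1511 in border and 1356, 1520.3 and 315 in row >3. All border libraries were above all centre libraries for Avil, though by a small margin over centre replicate 3, and not for Dclk1. Il25 was barely detected, with raw counts of 0, 0 and 10 in SI centre, 10, 0 and 0 in border and 15, 3 and 0 in row >3. A count of 0 allowed at most 0.135 and 0.147 CPM in SI centre replicates 1 and 2 and 0.209 and 0.138 in SI border replicates 2 and 3, for counting error alone, so that Il25 could not be compared at this depth.

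By edgeR's quasi-likelihood test over all 18 libraries, none of the 8 genes was called in SI border against centre at a Benjamini-Hochberg adjusted p below 0.05, where 0.0112% of all genes tested were called. Without Il25, the 7 log2 fold changes lay between 1.47 (Dclk1) and 3.15 (Plcb2), with a median of 1.91 against 0.00 over the 12977 genes with a mean of at least 1 CPM. Avil, Plcb2, Ptgs1 and Gfi1b had an unadjusted p below 0.05, and the smallest adjusted p was 0.151 for Plcb2. With the replicate number added as a block at each site, Plcb2 was called in this comparison with a log2 fold change of 3.04 ± 0.58 and an adjusted p of 0.0331, where 2.32% of genes were called. DESeq2's Wald test also called Plcb2 alone, with an adjusted p of 4.9e-05, where 0.782% of genes were called. The 3 members whose libraries all lay above those of SI centre, Avil, Plcb2 and Ptgs1, compare with 4.47% of all 24814 genes in the normalised table.

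In SI row >3 against centre, Plcb2 was the only member called, with an adjusted p of 0.0158 by edgeR, where 13.2% of all genes were called. DESeq2 called the same member, where 15.9% of genes were called. The other 6 members apart from Il25 had log2 fold changes of 0.07 (Gfi1b) to 1.23 (Ptgs1 and Avil). Plcb2 was also the only member whose row >3 libraries all lay above those of the centre, as did 13.8% of all genes. Its edgeR call did not hold without SI centre replicate 1 (adjusted p = 0.0727), without SI centre replicate 2 (0.0736), without SI row >3 replicate 1 (0.0522) or in a fit of these 2 groups alone (0.0642), and its log2 fold change stayed between 2.21 and 3.48 in the alternatives run. Between SI row >3 and border, edgeR called none of the 8 genes, none had an unadjusted p below 0.05, DESeq2 called none, and 1.61% of all genes were called. There the 7 log2 fold changes lay between -1.54 (Gfi1b) and -0.54 (Plcb2), and Gfi1b was the member whose row >3 libraries all lay below those of the border, as did 5.5% of all genes.

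The comparisons with the SI centre depended on replicate 3. When each border library was set against the centre library of the same replicate number, 8 of 8 genes were higher in border in replicate 1 with a median log2 ratio (of normalised counts plus 1) of 5.17, 7 of 8 in replicate 2 with a median of 3.08 and 5 of 8 in replicate 3 with a median of 0.25. For row >3 over centre, 8 of 8 were higher in replicate 1 (median 3.41), 8 of 8 in replicate 2 (3.54) and 1 of 8 in replicate 3 (-1.70). For row >3 over border, 0 of 8 were higher in replicate 1 (-1.47), 6 of 8 in replicate 2 (0.33) and 0 of 8 in replicate 3 (-1.95). With the 3 SI libraries of replicate 3 left out, which leaves n = 2 in each SI group, edgeR called 7 of 8 genes higher in border than centre, against 0.963% of the 26181 genes then tested. Their log2 fold changes were 4.59 ± 0.55 for Trpm5, 3.73 ± 0.67 for Plcb2, 5.20 ± 0.53 for Alox5, 4.93 ± 0.62 for Ptgs1, 4.96 ± 1.04 for Gfi1b, 4.56 ± 0.50 for Dclk1 and 3.80 ± 0.45 for Avil. The adjusted p-values ran from 2.7e-05 for Alox5 to 0.0237 for Plcb2. The same 7 genes were called higher in row >3 than centre in that fit, with log2 fold changes of 3.17 (Avil) to 4.24 (Alox5), where 17.1% of all genes were called. Between row >3 and border none was called in it, where 7.23% of all genes were called, and Alox5, Ptgs1 and Gfi1b had an unadjusted p below 0.05 with log2 fold changes of -0.95, -1.07 and -1.51. Leaving out SI centre replicate 3 alone brought the calls to 6 in border and to 7 in row >3 over centre, where 1.21% and 14.3% of all genes were called.

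**Figure D3:**
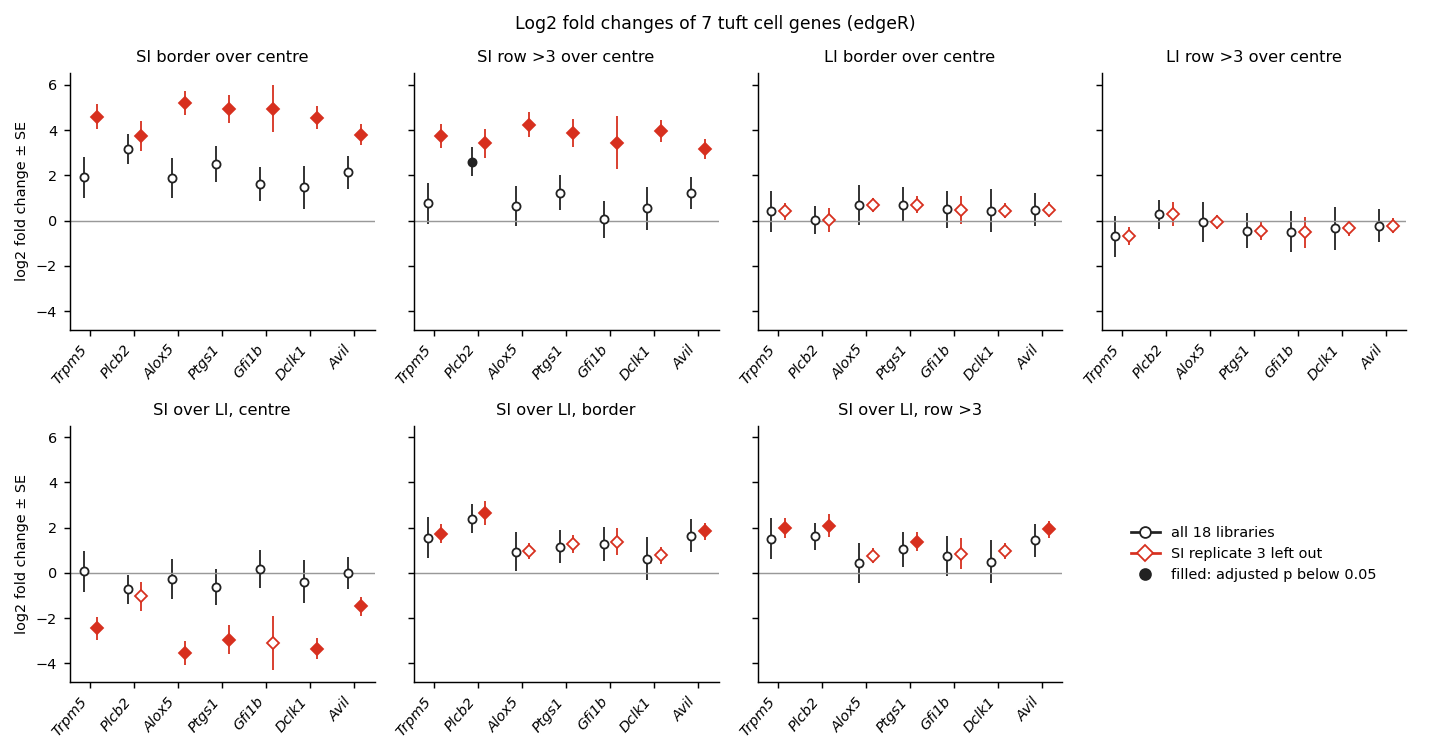
Log2 fold change with its standard error (y) of 7 tuft cell genes (x) in 7 comparisons, from the edgeR fit of all 18 libraries (black circles) and from the fit without the 3 SI libraries of replicate 3 (red diamonds); filled symbols have an adjusted p below 0.05. In the SI the border values rise from 1.47 to 3.15 with all libraries to 3.73 to 5.20 without replicate 3, while the LI values lie between -0.68 and 0.71 with all libraries.

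Within the LI, no member was called in any comparison, while for 5 of the 8 genes all row >3 libraries lay below all border libraries. Trpm5 had 1039, 709.9 and 566 normalised counts in centre replicates 1, 2 and 3, 1299, 898 and 878 in border and 455, 567 and 402 in row >3. Plcb2 had 319.9, 164 and 111.2 in centre, 304, 171 and 126 in border and 328, 236 and 141 in row >3, so that the 3 groups covered the same range. Alox5 had 213, 168 and 177 in centre, 397, 251 and 250.1 in border and 189, 163 and 186 in row >3, and all border libraries were above those of the other groups.

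Ptgs1 had 119, 125 and 109.6 normalised counts in LI centre replicates 1, 2 and 3, 263, 143 and 173 in border and 82.0, 102 and 73.6 in row >3, with no overlap between any pair of the 3 groups. Gfi1b had 9.41, 25.5 and 8.997 in centre, 31.2, 21.2 and 14.1 in border and 7.29, 16.7 and 7.54 in row >3, with overlap between all groups. Dclk1 had 2423, 1858 and 1456 in centre, 3406, 2229.5 and 2179.7 in border and 1648, 1463 and 1400.4 in row >3. Avil had 556, 399 and 375 in centre, 860.3, 460.4 and 543 in border and 373, 371 and 389 in row >3. For both genes the border libraries overlapped with those of the centre and lay above all of row >3. With Trpm5, Alox5 and Ptgs1 this made 5 members whose row >3 libraries all lay below those of LI border, as did 5.82% of all 24814 genes. Il25 had raw counts of 5, 5 and 0 in centre, 13, 7 and 4 in border and 37, 5 and 4 in row >3, and 1 library of row >3 held most of the reads of its group.

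By edgeR, none of the 8 genes was called in LI border against centre, where 0% of all genes were called and 368 of 26717 had an unadjusted p below 0.05, and none of the members did. The 7 log2 fold changes lay between 0.03 (Plcb2) and 0.71 (Ptgs1), with a median of 0.49 and standard errors of 0.63 to 0.95. None was called in LI row >3 against centre, where 0.0187% of all genes were called, with log2 fold changes of -0.68 (Trpm5) to 0.27 (Plcb2), nor in LI row >3 against border, where 0% were called and 993 genes had an unadjusted p below 0.05, with values of -1.15 (Ptgs1) to 0.25 (Plcb2). No member had an unadjusted p below 0.05 in either of them, and DESeq2 called none in the 3 comparisons. In the fit without SI replicate 3, whose libraries also enter the shared estimate of the spread, edgeR again called no member in LI border over centre, row >3 over centre and row >3 over border, where 0.00382%, 1.9% and 0.0802% of genes were called. In that fit the unadjusted p for row >3 over border was 0.0167 for Trpm5 (-1.10 ± 0.39), 0.00868 for Ptgs1 (-1.16 ± 0.40), 0.0270 for Alox5 (-0.74 ± 0.31) and 0.0395 for Dclk1 (-0.79 ± 0.34), by edgeR, with adjusted p-values of 0.407 to 0.598. For border over centre it was 0.0383 for Alox5 (0.69 ± 0.31), with an adjusted p of 1. Alox5 and Ptgs1 were the members whose border libraries all lay above those of LI centre, as did 3.11% of all genes, and Ptgs1 the one whose row >3 libraries all lay below them, as did 7.73%. The median log2 ratio of border over centre libraries of the same number was 0.76, 0.23 and 0.59 in replicates 1, 2 and 3 of the LI. For row >3 over border it was -1.13, -0.54 and -0.56, with 2, 1 and 2 of the 8 members above 0.

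Between the sites, in border cells, Trpm5, Avil and Plcb2 were the members for which all 3 SI border libraries lay above all 3 LI border libraries, as did 7.9% of all genes. Their log2 fold changes of SI over LI were 1.56 ± 0.91, 1.64 ± 0.73 and 2.41 ± 0.63, and edgeR called none of the 8 genes with all libraries, where 1.75% of all genes were called. Avil and Plcb2 had an unadjusted p below 0.05, and the adjusted p of Plcb2 was 0.0795. When the number of the replicate entered the fit of all libraries as a block, Plcb2 was called with an adjusted p of 0.0189, where 4.27% of genes were called, and DESeq2 called it with an adjusted p of 0.000473, where 4.54% were called. That block treats the number as shared by the sites, although same-numbered libraries of different sites correlated with r of only -0.10 to 0.438. Without SI replicate 3, Trpm5, Avil and Plcb2 were called, with log2 fold changes of 1.73 ± 0.41, 1.83 ± 0.36 and 2.64 ± 0.54, where 8.1% of genes were called. Dclk1 at 0.77 ± 0.37, Alox5 at 0.97 ± 0.33, Ptgs1 at 1.28 ± 0.40 and Gfi1b at 1.38 ± 0.60 were not called in that fit.

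In row >3 cells edgeR called none of the 8 genes between SI and LI, where 4.09% of all genes were called. The log2 fold changes lay between 0.45 (Alox5) and 1.61 (Plcb2), Plcb2 alone had an unadjusted p below 0.05, and DESeq2 called Plcb2 with an adjusted p of 0.0276, where 6.34% of genes were called. Without SI replicate 3, Trpm5 (1.99 ± 0.42), Avil (1.92 ± 0.36), Plcb2 (2.09 ± 0.51) and Ptgs1 (1.37 ± 0.42) were called higher in the SI, where 12.2% of genes were called. In centre cells edgeR called none, none had an unadjusted p below 0.05, DESeq2 called none, and 1.99% of all genes were called, with log2 fold changes of -0.72 (Plcb2) to 0.17 (Gfi1b). Without SI replicate 3, Trpm5 (-2.44 ± 0.51), Alox5 (-3.54 ± 0.54), Ptgs1 (-2.94 ± 0.65), Dclk1 (-3.34 ± 0.46) and Avil (-1.48 ± 0.42) were called lower in SI centre than in LI centre, where 10.9% of genes were called. In that fit Plcb2 (-1.04 ± 0.65) and Gfi1b (-3.11 ± 1.19) were not called.

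Whether the change along the crypt differed between the sites was tested as an interaction. With all libraries, edgeR called none of the 8 genes for border over centre, where 0% of genes were called and 708 had an unadjusted p below 0.05, and none for row >3 over centre, where 0% were called and 1800 had an unadjusted p below 0.05. Plcb2 alone among the members had an unadjusted p below 0.05, at differences of 3.12 ± 0.90 and 2.33 ± 0.88 on the log2 scale, and DESeq2 called no member in either. Without SI replicate 3, Trpm5, Alox5, Ptgs1, Dclk1 and Avil were called in both, where 0.16% and 3.27% of genes were called. Their differences between SI and LI were 3.31 (Avil) to 4.51 (Alox5) for border over centre and 3.40 (Avil) to 4.43 (Trpm5) for row >3 over centre. Plcb2 and Gfi1b had differences of 3.68 ± 0.85 and 4.49 ± 1.31 for border over centre, with adjusted p-values of 0.268 and 0.368.

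Within single libraries, 3 of the 6 ratios of a member to Dclk1 did not overlap between the sites once SI centre replicate 3 was set aside. These ratios were looked at after the values were seen and are given with no test. Trpm5 was 0.58 to 0.89 times the level of Dclk1 in SI libraries other than centre replicate 3, and 0.28 to 0.43 times in the 9 LI libraries. For Avil the ratio to Dclk1 was 0.43 to 0.88 in these 8 SI libraries and 0.21 to 0.28 in the LI, and for Plcb2 it was 0.209 to 0.63 and 0.058 to 0.20. Accordingly, Dclk1 made up 30.4% to 38.1% of the summed counts of the 8 genes in these SI libraries and 50.04% to 53.8% in the LI. SI centre replicate 3 had ratios of 0.53 for Trpm5, 0.25 for Avil and 0.044 for Plcb2 and a Dclk1 share of 49.95%, so that Avil lay within the LI range in it and Plcb2 below every other library. The other SI libraries of replicate 3 lay above the LI range, with ratios of 0.43 for Avil in both and 0.209 and 0.30 for Plcb2 in border and row >3. For Avil both of them, and for Plcb2 that of border, were below all 6 SI libraries of replicates 1 and 2. The ratios of Alox5 to Dclk1 overlapped between the sites, at 0.068 to 0.20 in these SI libraries and 0.088 to 0.13 in the LI, as did those of Ptgs1, at 0.021 to 0.150 and 0.049 to 0.080, and of Gfi1b, at 0.0049 to 0.0215 and 0.0039 to 0.0137.

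**Figure D4:**
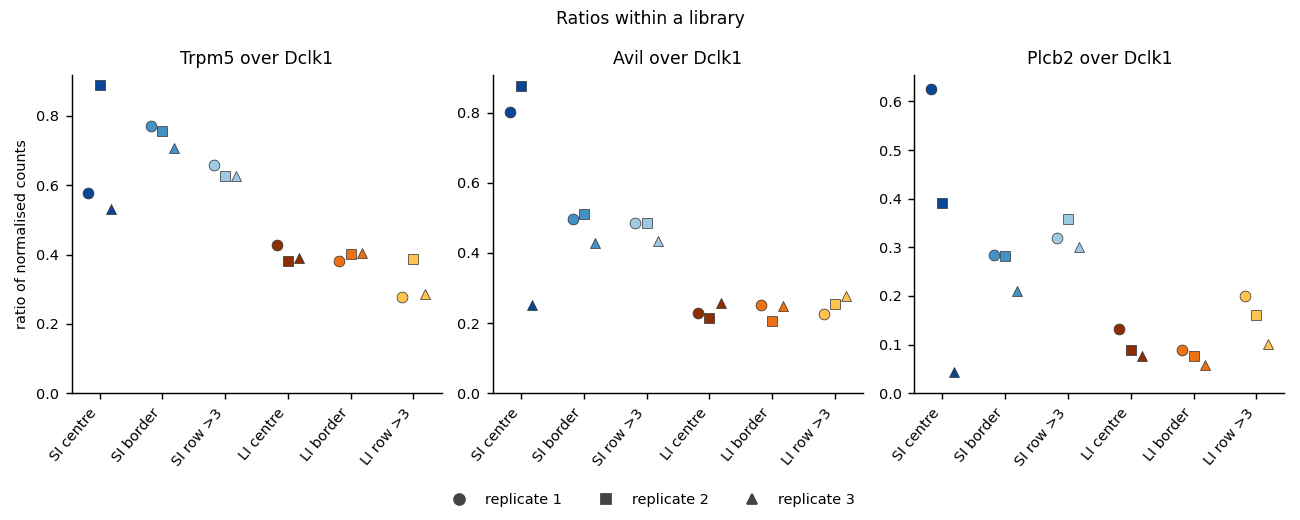
Ratio of the normalised counts of Trpm5, Avil and Plcb2 to those of Dclk1 (y, from 0) in each of the 18 libraries (x, by group), shaped by replicate. The SI libraries lie above the LI libraries in all 3 panels, except SI centre replicate 3 for Avil (0.25) and Plcb2 (0.044).

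Across the 18 libraries, which share replicate numbers and vary in depth, 7 of the 8 members varied together. On the log2 CPM scale the median correlation of a gene with the members other than Il25 was 0.92 for Trpm5, 0.91 for Alox5, 0.90 for Dclk1, 0.88 for Ptgs1, 0.87 for Avil and Gfi1b and 0.70 for Plcb2, against 0.40 for Il25. Within the 9 LI libraries Plcb2 had a median correlation of 0.23 with the others and Gfi1b one of 0.57, while Trpm5, Avil, Alox5, Ptgs1 and Dclk1 had 0.80 to 0.88. Among the 12970 other genes with a mean of at least 1 CPM, the 10 most like the mean of the standardised members over the 18 libraries included Fyb (Pearson r = 0.99), Pik3r5 (0.99), Map1a (0.98), Sh2d6 (0.98), Strip2 (0.98), Pik3cg (0.97), Lrmp (0.97), Sh2d7 (0.96) and Pygl (0.96). Of these, Fyb, an adaptor of immune receptors, and Pik3r5 and Pik3cg, the subunits of PI3-kinase gamma, encode signalling proteins known from blood cells. In the 15 libraries without SI replicate 3, 8 of these 10 were again among the first 10, with correlations of 0.96 to 0.99. Pou2f3, the transcription factor needed for tuft cells, came 37th by this order with r = 0.90.

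Pou2f3 had 131, 91.2 and 316 normalised counts in SI centre replicates 1, 2 and 3, 1001, 355 and 519 in SI border and 440.4, 385 and 114 in SI row >3, against 150 to 313 in the 9 LI libraries. Its border libraries were all above those of the centre in the SI. Its log2 fold change was 1.76 ± 0.47 in SI border over centre, with an adjusted p of 0.23, and edgeR called it in no comparison with all libraries. DESeq2 with all libraries called it in that comparison (adjusted p = 0.0244) and higher in SI than LI border (0.0435). By edgeR it was called without SI replicate 3, higher in SI border (2.51 ± 0.37) and SI row >3 (1.89 ± 0.36) than in SI centre, and higher in the SI than in the LI in border (1.44 ± 0.31) and row >3 cells (1.41 ± 0.31).

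Of 51 further genes known from tuft cells, 49 were in the table. By edgeR with all libraries none of the 49 was called in SI border against centre, although 44 had a log2 fold change above 0, and the median was 1.495. An unadjusted p below 0.05 was found for 17 of them (34.7%, against 8.98% of all genes tested), and DESeq2 called 6 (12.2%, against 0.782%). In SI row >3 against centre 5 were called higher and 1 lower, with 37 above 0 and a median of 0.67. These 6 were 12.2% of the 49, close to the 13.2% of all genes called. Between SI row >3 and border edgeR called 1 (2.04%, against 1.61%) and DESeq2 2 (4.08%, against 4.88%). Rgs2, a regulator of G protein signalling, rose from 143 ± 160.0 normalised counts (SD, n = 3) in SI centre to 1379 ± 751 in SI row >3, with 46.2, 54.3 and 327 in the centre libraries and 1784, 1839 and 512 in those of row >3. Alox5ap, the partner protein of ALOX5, rose from 12.7 ± 14.1 to 92.4 ± 59.2, though row >3 replicate 3 at 24.98 lay below centre replicate 3 at 28.9. The IL-13 and IL-4 receptor genes Il13ra1 and Il4ra rose by 1.38 ± 0.34 and 1.05 ± 0.26 on the log2 scale. Sox9, a transcription factor of the crypt base, fell by 1.02 on the log2 scale in row >3 against centre and by 0.78 against border, with 4558 to 5842 normalised counts in SI centre, 3526 to 5140.3 in border and 2388 to 2881 in row >3. All 6 genes were called again without SI replicate 3 in row >3 over centre, at 5.18 ± 0.35 for Rgs2, 4.71 ± 0.81 for Alox5ap, 1.96 ± 0.35 for Il13ra1, 1.13 ± 0.29 for Il4ra and -0.88 ± 0.16 for Sox9 on the log2 scale, with Kcnj16 at 0 in the remaining SI centre libraries. Leaving out SI row >3 replicate 1 alone brought the 6 calls to 3, with adjusted p-values by edgeR of 0.0574 for Alox5ap, 0.0722 for Il13ra1 and 0.0730 for Il4ra. The call of Alox5ap was also lost without SI centre replicate 1 (0.0613) or 2 (0.0551), and that of Il13ra1 without SI centre replicate 1 (0.05002). That of Rgs2 was lost in a fit of the compared groups only (0.152) and that of Kcnj16 with DESeq2 (0.104). The call of Sox9 against border was lost without SI row >3 replicate 1 (0.161), SI border replicate 1 (0.0757) or 2 (0.0960) and with the compared groups only (0.167). None of the 49 was called by edgeR within the LI with all libraries. The number with an unadjusted p below 0.05 was 0 for LI border over centre, 3 for LI row >3 over centre (6.12%, against 6.96% of all genes) and 2 for LI row >3 over border (4.08%, against 3.72%), and DESeq2 called 1 in LI row >3 over centre (2.04%, against 0.348%) and none in the others. For LI row >3 over border 9 of the 49 had a log2 fold change above 0, with a median of -0.64. Without SI replicate 3, the edgeR numbers with an unadjusted p below 0.05 differed. They were 1 (2.04%, against 2.47%) for border over centre, 7 (14.3%, against 12%) for row >3 over centre and 18 (36.7%, against 7.77%) for row >3 over border. In the interactions with all libraries edgeR also called none of the 49. There 4 (8.16%, against 2.65%) and 2 (4.08%, against 6.74%) had an unadjusted p below 0.05 for border and row >3 over centre, and DESeq2 called none and 1 (2.04%, against 0.558%). With SI replicate 3 left out, edgeR called 12 (24.5%, against 0.16% of all genes) in the interaction for border over centre and 25 (51%, against 3.27%) in that for row >3 over centre, all with a larger change in the SI. In that fit it called 1 (2.04%, against 1.9%) in LI row >3 over centre, none in the other LI comparisons and 2 (4.08%, against 7.23%) in SI row >3 over border. With the replicate block added to that fit, 10 were called in SI row >3 over border, where 3284 genes were called in all. In LI row >3 over border 6 were then called (401 in all), and in LI row >3 over centre 2 (1776 in all). In the interactions 21 were called for border over centre (109 in all) and 32 for row >3 over centre (1997 in all).

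The potassium channel gene Kcnj16 had no read in any of the 9 LI libraries, while SI border held 116, 60.9 and 103 normalised counts and SI row >3 held 52.7, 53.7 and 7.81. SI centre had 0, 0 and 5.595, and Kcnj16 was called higher in SI row >3 than in centre with an adjusted p of 0.00574. Against a floor of 3 counts per LI library, Kcnj16 was at least 32.05-fold higher in SI border and at least 14.6-fold higher in SI row >3, with adjusted p-values of 0.00203 and 0.00526 by edgeR. In border cells the IP3 receptor gene Itpr2 (2762 ± 1154 in SI against 1132 ± 92.3 in LI normalised counts) and Kctd12 (532 ± 241 against 172 ± 29.1) were also called higher in the SI, and in row >3 cells Rgs2 (1379 ± 751 against 219.8 ± 48.6). The 3 genes called in border cells were 6.12% of the 49, against 1.75% of all genes, and the 2 called in row >3 cells were 4.08%, close to the 4.09% of all genes. DESeq2 called 6 (12.2%, against 4.54%) in border and 7 (14.3%, against 6.34%) in row >3 cells. By edgeR 12 (24.5%, against 13.9%) and 13 (26.5%, against 15.7%) had an unadjusted p below 0.05. Kcnj16, Itpr2, Kctd12 and Rgs2 were called in these comparisons without SI replicate 3 as well, with log2 fold changes of 1.28 ± 0.23 for Itpr2 and 1.58 ± 0.29 for Kctd12 in border and 3.04 ± 0.25 for Rgs2 in row >3. Without SI border replicate 1, Kcnj16 alone was called in border cells, with adjusted p-values by edgeR of 0.0630 for Itpr2 and 0.188 for Kctd12. The call of Kctd12 was lost in 5 of 15 alternatives, among them those without any 1 of the 3 LI border libraries (0.0894 to 0.156). That of Rgs2 was lost in 7 of 15, among them those without SI row >3 replicate 1 (0.156) or 2 (0.103) and without any 1 of the LI row >3 libraries (0.0838 to 0.161). In centre cells edgeR called none of the 49, 4 had an unadjusted p below 0.05 (8.16%, against 14.5% of all genes), and DESeq2 called 1 (2.04%, against 4.64%). Among the 49, the calls without SI replicate 3 were 34 (69.4%) in SI border against centre and 39 (79.6%) in SI row >3 against centre, where 0.963% and 17.1% of all genes were called. Between the sites they were 28 (57.1%), 14 (28.6%) and 21 (42.9%) in centre, border and row >3 cells, against 10.9%, 8.1% and 12.2% of all genes. In centre cells 1 of them was higher and 27 were lower in the SI. In border cells 13 were higher and 1 lower, and in row >3 cells 19 were higher and 2 lower.

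Several members are also used by blood cells, and goblet and enteroendocrine cells share the secretory origin of tuft cells, so marker lists of these cells, and of the absorptive cells that make up most of the epithelium above the crypts, were read in the same libraries. The 13 lymphoid markers summed to 37.8 to 256 normalised counts in SI centre, 218 to 597 in SI border and 39.0 to 217 in SI row >3, and to 99.9 to 251, 92.3 to 305 and 55.6 to 114 in LI centre, border and row >3. The highest of the list were Ptprc and Cd79a or Gzmb. Most of the sum was Ptprc, which tuft cells also express and whose likeness to the members was r = 0.86, and without Ptprc the other 12 lymphoid markers summed to at most 44.7 in any library. The genes at 0 in SI centre were Cd3e, Cd8a, Cd8b1, Cd4, Trac, Gzma and Gzmb, and in SI border those at 0 included Cd3d, Cd3g, Cd8b1, Gzma and Gzmb. Of 7 mast cell markers, Cpa3, Mcpt1, Mcpt2, Mcpt4 and Fcer1a were at 0 in all 18 libraries, and Kit and Tpsb2 were the highest of the list, which without Kit summed to at most 2.74.

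The 10 myeloid markers in the table summed to 457 to 519 normalised counts in SI centre, 635 to 765 in SI border, 798 to 1471 in SI row >3, 486 to 856 in LI centre, 479 to 873 in LI border and 693 to 996 in LI row >3, with Itgam highest in the SI and C1qa in the LI and S100a8, S100a9 and Ly6g at 0 in all libraries. The 6 platelet and megakaryocyte markers summed to 120.3 to 297, 187 to 416 and 215 to 379 in SI centre, border and row >3, led by Gp1bb and Itga2b, and to 27.3 to 101 in the LI libraries, with Ppbp at 0 in all. In SI centre replicates 1, 2 and 3 the platelet list was at 297, 254 and 120.3 and the myeloid list at 463.5, 457 and 519, where the sum of the tuft genes was more than 10 times higher in replicate 3 than in the others. The lymphoid list was highest in replicate 3 as well, at 87.5, 37.8 and 255.5 in these libraries, of which Ptprc made up 44.6, 21.2 and 255.5.

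The 7 goblet cell markers, like the tuft genes, were low in SI centre replicates 1 and 2. They summed to 13905, 23657 and 203737 normalised counts in SI centre replicates 1, 2 and 3, 180729, 85119 and 263511 in SI border and 1044390, 729104 and 625036 in SI row >3, led by Muc2 and Fcgbp. In the LI they were at 131183 to 208062 in centre, 176148 to 258370 in border and 289326 to 468766 in row >3. The 11 enteroendocrine markers summed to 1316, 6852 and 25721 in SI centre, 7563 to 24645 in SI border and 10174 to 53162 in SI row >3, and to 24278 to 69093 in the LI, led by Reg4 and Chgb. By group means most of the LI sum was Reg4, at 31687, 34223 and 55148 in LI centre, border and row >3. Chgb was at 2791, 1692 and 2182 there and at 1390, 2687 and 3821 in the SI groups, so the higher LI sums rested on Reg4. The goblet sum was higher in row >3 than in border in every SI replicate, whereas the sum of the tuft genes was lower in replicates 1 and 3. For SI row >3 over border edgeR called none of the 7 goblet markers, although all 7 had an unadjusted p below 0.05, against 13.6% of all genes. The log2 fold changes of 6 were above 0 and that of Clca1 was -1.13, and DESeq2 called 4 higher and 1 lower (71.4%, against 4.88%). For SI row >3 over centre edgeR called 6 higher and Clca1 lower, all 7 of the list, against 13.2% of all genes. For SI border over centre edgeR and DESeq2 called none. By edgeR 3 had an unadjusted p below 0.05 there (42.9%, against 8.98%). When SI replicate 3 was left out, edgeR called 3 of 7 goblet markers higher in SI border than centre (42.9%, against 0.963%). In row >3 against centre it called 7 of 7, 6 higher and 1 lower (against 17.1%). In row >3 against border it called 6 of 7, 5 higher and 1 lower (85.7%, against 7.23%). Goblet markers were thus called beside the tuft genes in the comparisons of that fit with SI centre. Between the sites it called 5 of 7 in centre cells, 1 higher and 4 lower in the SI (71.4%, against 10.9%). In border cells it called 1 (14.3%, against 8.1%) and in row >3 cells none. In the interactions it called none for border over centre and 4 for row >3 over centre (57.1%, against 3.27%). With all libraries edgeR called no goblet marker between the sites or in the interactions.

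The 9 absorptive cell markers summed to 4201, 1585 and 5133 normalised counts in SI centre replicates 1, 2 and 3, 10852, 4998 and 41294 in SI border and 34370, 13287 and 63301 in SI row >3, led by Apoa1 and Krt20 in the centre and by Car1 and Krt20 in the others. In the LI they were at 4099 to 6027 in centre, 4498 to 13791 in border and 18715 to 30107 in row >3, led by Car1 and Slc26a3. In every replicate of both sites the sum was higher in border than in centre and higher again in row >3, and the tuft genes were likewise lowest in the centre in SI replicates 1 and 2. Within the LI edgeR called none of the 9 with all libraries, where at most 0.0187% of all genes were called. There 8 had a log2 fold change above 0 in border over centre, 6 in row >3 over centre and 6 in row >3 over border. Without SI replicate 3 it called 1, in LI row >3 over centre (11.1%, against 1.9%). For SI border over centre all 9 markers had a log2 fold change above 0, with a median of 2.10, and edgeR called Fabp1 alone (3.36 ± 0.52), 11.1% of the list against 0.0112% of all genes. For SI row >3 over centre the median was 2.81, and edgeR called 4 of 9 higher (44.4%, against 13.2% of all genes), Fabp1, Alpi, Krt20 and Sis. In the fit that left out SI replicate 3, 1 of 9 (11.1%, against 0.963%) and 5 of 9 (55.6%, against 17.1%) were called, with medians of 1.44 and 3.17. In that fit 7 of the 9 markers had a log2 fold change above 0 in border over centre and 9 in row >3 over centre. The part of other cell types in the levels of the tuft genes was not tested.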

How the data were processed

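RNA of GFP-sorted EPCAM+ crypt cells was measured in 18 libraries, 3 in each of 6 groups of site and GFP level. Per the study's methods, paired reads of 100 nt were demultiplexed with bcl2fastq, trimmed with Skewer and aligned with STAR to mm10. The sources used here do not give the annotation release or the strand setting. The authors deposited a table of raw counts (43346 genes) and a table of normalised counts, a signal made by dividing each library's counts by 1 size factor (24814 genes, whose counts sum to 2 or more). No column belonged to another sample.

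The raw counts were fitted for all 6 groups at once with edgeR 4.0.16 in R 4.3.3 (TMM factors, quasi-likelihood test, 26717 genes with a mean count above 0, 12 residual degrees of freedom), and p-values were adjusted over all genes by the Benjamini-Hochberg method with a threshold of 0.05. The fit was tested on simulated counts with the same spread for all genes, no replicate effect and no outlying library. That test does not cover a spread like that between the SI libraries here. DESeq2 1.42.0, other scalings, filters, replicate blocks and left-out libraries were alternatives. Leaving out all 3 SI libraries of replicate 3 was among them. Levels and correlations (log2 CPM with a prior count of 2, genes with a mean of at least 1 CPM) were computed in Python 3.11.15. All 8 genes are named, with Pou2f3, the other tuft genes called (up to 10 per comparison), the 10 genes most alike, the highest markers of other cell types, and Lgr5. Of the genes this rule names or the marker lists hold, some are not reported here. The members and lists were chosen with earlier results of these data known.

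Whether replicate numbers pair the libraries was checked by correlating deviations from group means over 10223 genes. Same-numbered libraries of a site correlated with r of 0.358 to 0.783 in the SI and 0.444 to 0.684 in the LI, and those of different sites with -0.10 to 0.438. The pairing therefore comes from the data, and within a site the numbers were used as a block. A block over all libraries was run as an alternative between the sites, where the correlations bear the pairing out less.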

Additional observations from a re-analysis of the deposited data

How the results depend on the processing

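The reported fit gave 77 fold changes of the 7 genes other than Il25, 1 per gene and comparison. Counted per gene, comparison and alternative, they kept their direction and side of the threshold in 1169 cases and crossed into significance in 86. They lost it in 4 (all Plcb2 in SI row >3 over centre) and turned sign in 36. The cause was not tested. The number of the 8 genes called in SI border over centre was 0 and became 1 with DESeq2, 1 with the replicate block, 7 without the SI libraries of replicate 3 and 7 with both that and the block. In SI row >3 over centre it was 1 and became 0 in a fit of the compared groups only, 7 without SI replicate 3 and 7 with the block added. Of all genes, 6201 were called there without SI replicate 3 and with the block. In SI row >3 over border it was 0 and became 1 (Ptgs1) without SI replicate 3 and with the block, where 3284 of all genes were called. Between the sites it was 0 throughout and became 5 (centre cells), 3 (border) and 4 (row >3) without SI replicate 3, 1 in border and 1 in row >3 with DESeq2, 1 in border with filterByExpr and 1 in border with the block over all libraries. In the interactions it was 0 and became 5 and 5 without SI replicate 3, where 0.16% and 3.27% of all genes were called. With the block added it became 3 and 6, where 109 and 1997 of all genes were called. Leaving out 1 library at a time gave 0 to 6 calls in SI border over centre, 0 to 7 in SI row >3 over centre, 0 to 3 and 0 to 1 between the sites in centre and row >3 cells, and 0 to 2 and 0 to 4 in the interactions, the highest of them without SI centre replicate 3, or without SI row >3 replicate 3 between the sites in row >3. Without SI centre replicate 3, 1.21% and 14.3% of all genes were called in SI border and row >3 over centre. The share of all genes is not given for the other fits with 1 library left out or for filterByExpr. Nor is it given for SI border over centre without SI replicate 3 and with the block. The member counts of those fits are therefore not set against that share, and no excess is read from them.

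Signs turned in small differences. Between the sites in centre cells Avil moved from -0.01 to 0.035 with DESeq2 and 0.035 with RLE factors, 0.0059 with filterByExpr and 0.017 with the compared groups only, Trpm5 from 0.07 to -0.089 with library size only and -2.44 without SI replicate 3, and Gfi1b to -3.11 without it. With library size only, Gfi1b in SI row >3 over centre was -0.038 and Plcb2 in LI border over centre -0.011. Leaving out 1 library at a time gave, in centre cells between the sites, -1.50 to 0.43 for Avil, -2.46 to 0.60 for Trpm5, -3.56 to 0.30 for Alox5, -3.36 to 0.15 for Dclk1 and -3.12 to 0.93 for Gfi1b. For Gfi1b it gave -0.54 to 3.36 in SI and -1.05 to 0.25 in LI row >3 over centre and -0.18 to 3.86 for their difference. For Plcb2 it gave -0.39 to 0.50 in LI border over centre, -0.025 to 0.75 in LI row >3 over centre, -0.051 to 0.66 in LI row >3 over border and -0.94 to 0.12 in SI row >3 over border, and for Alox5 -0.096 to 0.037 in LI row >3 over centre.

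Over all genes, the number called ranged in the alternatives from 0 to 620 in SI border over centre (3 in the reported fit), 1973 to 6201 in SI row >3 over centre (3518), 0 to 3284 in SI row >3 over border (429), 0 to 4, 0 to 1776 and 0 to 401 in the LI comparisons of border over centre (0), row >3 over centre (5) and row >3 over border (0), 180 to 2854, 138 to 2121 and 379 to 3184 between the sites in centre (532), border (468) and row >3 cells (1092), and 0 to 109 and 0 to 1997 in the interactions (0 and 0). The block changed no other call of a member with all libraries. A block within a site was not run between the sites, where it would remove the spread between libraries of different numbers. The legacy fit of edgeR, and the block without SI replicate 3, were added after seeing the data. Without SI replicate 3 each SI group has 2 libraries, and Il25, with 0 to 37 counts, is limited by depth.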
